A study of Homo sapiens with 9 samples.

Results

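The nuclear genes of the respiratory chain were followed in SET2 cells with and without an intact *DYRK1A* gene. They were all protein-coding genes whose symbol starts with NDUF, UQCR or ATP5, the subunits SDHA to SDHD, and symbols of the COX4 to COX8 series, which gave 98 of the 60662 genes in the table. Of these, 38 were assigned to complex I, 8 to its NDUFAF assembly factors, 4 to complex II, 9 to complex III, 19 to complex IV and 20 to complex V. SET2 is a *JAK2* mutant megakaryoblastic leukaemia line that the labels describe as Post MPN AML. RNA-seq covered untreated WT cells and KO clones 11H1 and 14B5, with 3 libraries each. Both clones were made with a Cas9 ribonucleoprotein against *DYRK1A* and grown from 1 sorted cell each, and carried only out-of-frame indels. The libraries of a clone therefore descend from a single cell. The WT libraries come from unedited cells that are not such a clone, so the loss of *DYRK1A* and the choice of the founding cell cannot be told apart. The sources do not say whether the libraries of a group came from separate cultures, so the p values measure the spread between these libraries, which may be technical.

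The respiratory chain sits in the inner mitochondrial membrane. Complex I (NADH dehydrogenase) and complex II (succinate dehydrogenase) pass electrons to ubiquinone, complex III (the cytochrome bc1 complex) passes them to cytochrome c, and complex IV (cytochrome c oxidase) passes them to oxygen. Complexes I, III and IV pump protons, and complex V (ATP synthase) uses the gradient to make ATP. Most subunits are encoded in the nucleus and imported, whereas 13 are encoded by mitochondrial DNA, so each complex except II is built from the products of both genomes. The transcription factors NRF1, GABP of the ETS family and YY1 are textbook regulators of many of the nuclear genes.

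Each library held between 32347779 and 60272245 expected counts. Levels are given as CPM, the usual normalized read count relative to library size, with library sizes scaled by the TMM method. *DYRK1A* RNA stayed present, at 197, 196 and 219 CPM in WT, 188, 191 and 192 CPM in 11H1 and 191, 182 and 174 CPM in 14B5. Its log2FC against WT was −0.09 in 11H1 (adjusted p = 0.131) and −0.17 in 14B5 (adjusted p = 0.0278). Out-of-frame indels are not read from counts, and the study reports western blots for the KO or knockdown in its HEL and SET2 cells. All 9 megakaryoblast markers were detected, *ITGA2B* at 911 to 927 CPM in WT. Against WT 8 of them were lower and 1 higher in 11H1, where 32.8% of all genes tested were lower and 31.8% higher at the same threshold, and 7 were lower and 1 higher in 14B5, against 28.7% and 24.9% of all genes tested. The 9 markers summed to 2276 to 2391 CPM in WT, 1631 to 1690 CPM in 11H1 and 1622 to 1626 CPM in 14B5. These sums were close in the clones, but single markers differed. The log2FC against WT was −2.39 in 11H1 and −4.80 in 14B5 for *GP9*, −1.42 and −3.26 for *ITGB3*, and −1.43 and −2.50 for *CD34*. In 11H1 versus 14B5, 7 of the 9 were higher and 2 lower, against 31.6% and 32.1% of all genes tested. Of 14 markers of other cell types, 8 were tested against WT, with 6 lower and 2 higher in 11H1 and 8 lower in 14B5, and the 14 summed to 565 to 603 CPM in WT, 318 to 339 CPM in 11H1 and 285 to 306 CPM in 14B5. *CSF1R*, *CD14*, *MS4A1*, *CD3E*, *CD3G* and *COL1A2* were below 0.5 CPM in every library. Other markers of the same cell types were detected. *CD79A* was at 20.7 to 23.1 CPM in WT. *CDH5* was at 7.65 to 9.72 CPM in WT, with log2FC values of −1.23 in 11H1 and −6.04 in 14B5. *CD3D* and *COL1A1* were higher in 11H1 by 1.86 and 1.41 and lower in 14B5 by −1.28 and −1.17. *LYZ* at 195 to 198 CPM and *PECAM1* at 335 to 372 CPM in WT made up most of the sum of the 14, and the part of these markers in the results was not tested.

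Promoter sequence was available from RefSeq (GRCh38.p14) for 76 of the 98 genes, as windows of 300 bases that run from 250 bases before to 50 bases after the transcription start. Motifs were searched on both strands. The NRF1 motif, spelled GCGCNTGCG, was in 23 of the 76 windows (30.3%) in 8.05% of all 27305 windows of the table and in 11% of the 15843 windows of protein-coding genes. The ETS motif CCGGAAG was in 20 of the 76 (26.3%), in 10.7% of all windows and in 14.2% of those of protein-coding genes. The YY1 motif AAGATGGCG was in 8 of the 76 (10.5%), in 1.85% of all windows and in 2.74% of those of protein-coding genes. The NRF1 motif is close to its own reverse complement, so that 1 site can be counted on each strand. Stretches are shown for 5 genes described below, on the strand of the gene, 5′ to 3′ and upstream of the annotated gene, with motif matches in capitals. They are from *SDHA* at chr5:218130-218237 on the plus strand, *NDUFS6* at chr5:1801336-1801394 on the plus strand and *SDHD* at chr11:112086738-112086772 on the plus strand with NRF1 matches, and from *COX5B* at chr2:97646000-97646039 on the plus strand and *NDUFB7* at chr19:14572067-14572115 on the minus strand with ETS matches.
SDHA: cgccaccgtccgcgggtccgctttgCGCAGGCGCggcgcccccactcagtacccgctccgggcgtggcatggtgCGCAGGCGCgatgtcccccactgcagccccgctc
NDUFS6: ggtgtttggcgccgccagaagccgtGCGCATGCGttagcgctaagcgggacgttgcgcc
SDHD: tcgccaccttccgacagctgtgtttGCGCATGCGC
COX5B: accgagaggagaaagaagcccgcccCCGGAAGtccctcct
NDUFB7: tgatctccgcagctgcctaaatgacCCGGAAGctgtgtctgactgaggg
The whole *SDHA* window held 4 NRF1 matches, more than are in the stretch shown. At least 1 of the 3 motifs was in 40 of the 76 windows (52.6%), so many members had no match. Of the 3 genes that were higher than WT in 11H1, *COX6B2*, *ATP5IF1* and *NDUFAF7*, none had a match to any of the 3 motifs in its window. *NDUFS1*, which was higher than WT in 14B5, had an ETS match. The stretches shown are all from genes lower than WT in 11H1, but members not called there, such as *NDUFAF4* and *ATP5PD*, had ETS matches too. Members with and without the NRF1 motif had median log2FC values of −0.42 (22 tested) and −0.36 (51 tested) in 11H1 versus WT and of −0.33 and −0.34 in 11H1 versus 14B5. With and without the ETS motif they were −0.46 (20 tested) and −0.32 (53 tested) in 11H1 versus WT and −0.32 and −0.35 in 11H1 versus 14B5. These medians are descriptions only.

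Of the 98 genes, 92 were tested in each comparison, and the other 6 had at most 4 counts in any library. In 11H1 versus WT, 71 of the 92 were lower at an adjusted p value below 0.05 and 3 were higher, where 32.8% of all 16675 genes tested were lower and 31.8% higher. The share of members that were lower was 77.2%, and their median log2FC was −0.36 where that of all genes tested was −0.01. In 14B5 versus WT, 16 were lower and 7 higher, against 28.7% lower and 24.9% higher of all 16537 genes tested, and the median log2FC of the members was −0.07. The share of members lower in 14B5, 17.4%, was thus below that of all genes. The clones were also compared directly, since both comparisons with WT share the WT libraries. In 11H1 versus 14B5, 70 members were lower and 1 was higher, against 32.1% lower and 31.6% higher of all 16352 genes tested, with a median log2FC of −0.32. Groups were also fully separated for many members, with all libraries of 11H1 below all of WT for 60 genes (35.3% of all genes tested) and below all of 14B5 for 69 (35.1% of all genes tested), and with 12 members of 14B5 below WT (31.1% of all genes tested) and 12 above (29.9% of all genes tested). The 14B5 count depended on single libraries. It was 8 without 14B5 library 1 or 2, 9 without WT library 1 or 2 and 29 without WT library 3, while the number higher ran from 4 without WT library 2 to 10 without WT library 1.

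**Figure D1:**
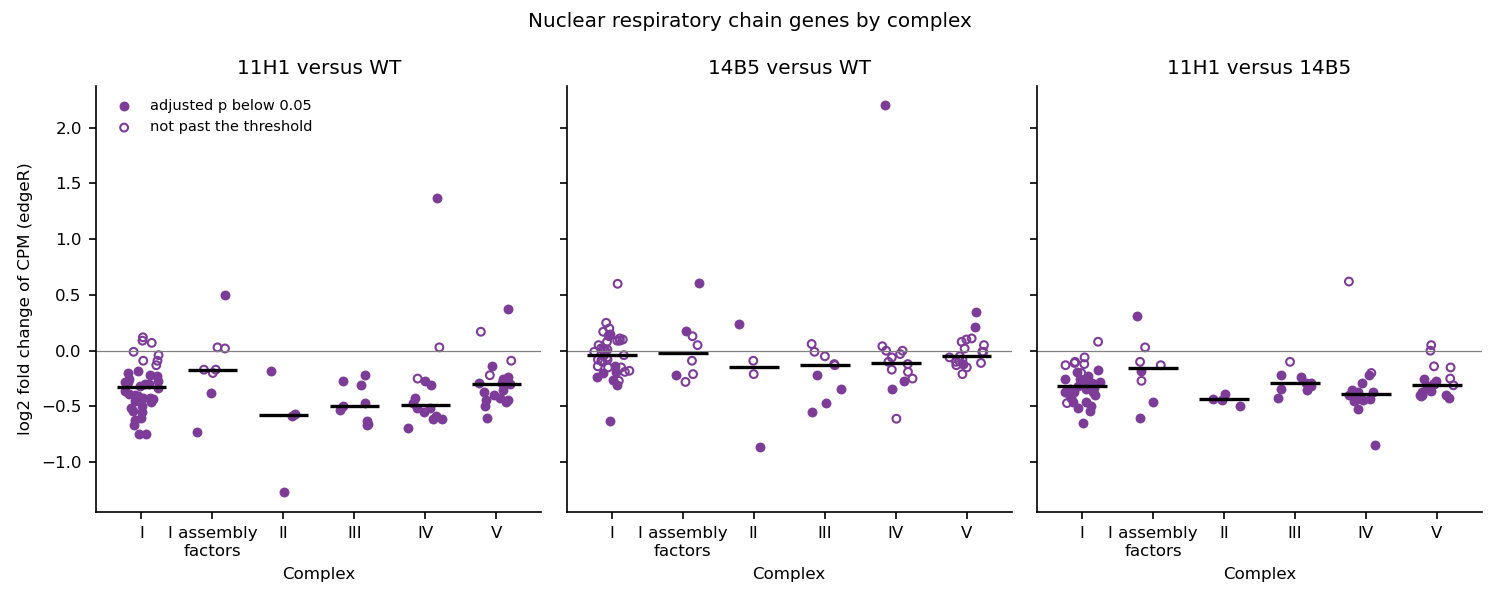
Each point is 1 gene, with its complex on the x axis and its log2FC in edgeR on the y axis, filled where the adjusted p value was below 0.05. Black bars are medians. In 11H1 most points lie below 0, with complex II at a median of −0.58, whereas in 14B5 versus WT the medians lie between −0.15 and −0.02.

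The median log2FC in 11H1 varied by complex. For 11H1 and WT, the larger SD of the library medians was 0.0548 in complex II, 0.101 in complex V, 0.13 in complex I, 0.151 in complex IV and 0.172 in complex III. Against WT the median log2FC was −0.58 for complex II (4 of 4 lower), −0.50 for complex III (9 of 9 lower), −0.49 for complex IV (11 of 14 tested lower), −0.33 for complex I (30 of 38 lower) and −0.30 for complex V (15 of 19 tested lower). The complex I assembly factors were at −0.17, with 2 of 8 lower and 1 higher (25% and 12.5%). Of all genes tested, 32.8% were lower and 31.8% higher in 11H1 versus WT, so both shares of the assembly factors were below those. In 14B5 versus WT the medians were −0.15 for complex II, −0.13 for complex III, −0.11 for complex IV, −0.05 for complex V, −0.04 for complex I and −0.02 for the assembly factors. Directly, 11H1 was below 14B5 by a median of −0.44 in complex II (4 of 4 lower), −0.39 in complex IV (12 of 14), −0.32 in complex I (30 of 38), −0.31 in complex V (13 of 19), −0.29 in complex III (8 of 9) and −0.15 in the assembly factors (3 of 8). In that comparison 32.1% of all genes tested were lower, so the 37.5% of the assembly factors was near the share of all genes. The order of the complexes was not tested. Summed over all members, RNA levels were 11136 ± 743 CPM (SD, n = 3) in WT, 8540 ± 458 CPM in 11H1 and 10660 ± 618 CPM in 14B5. These sums were 0.767 of WT in 11H1 and 0.957 of WT in 14B5. In bulk RNA fewer cells of a kind and less RNA per cell cannot be told apart.

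**Figure D2:**
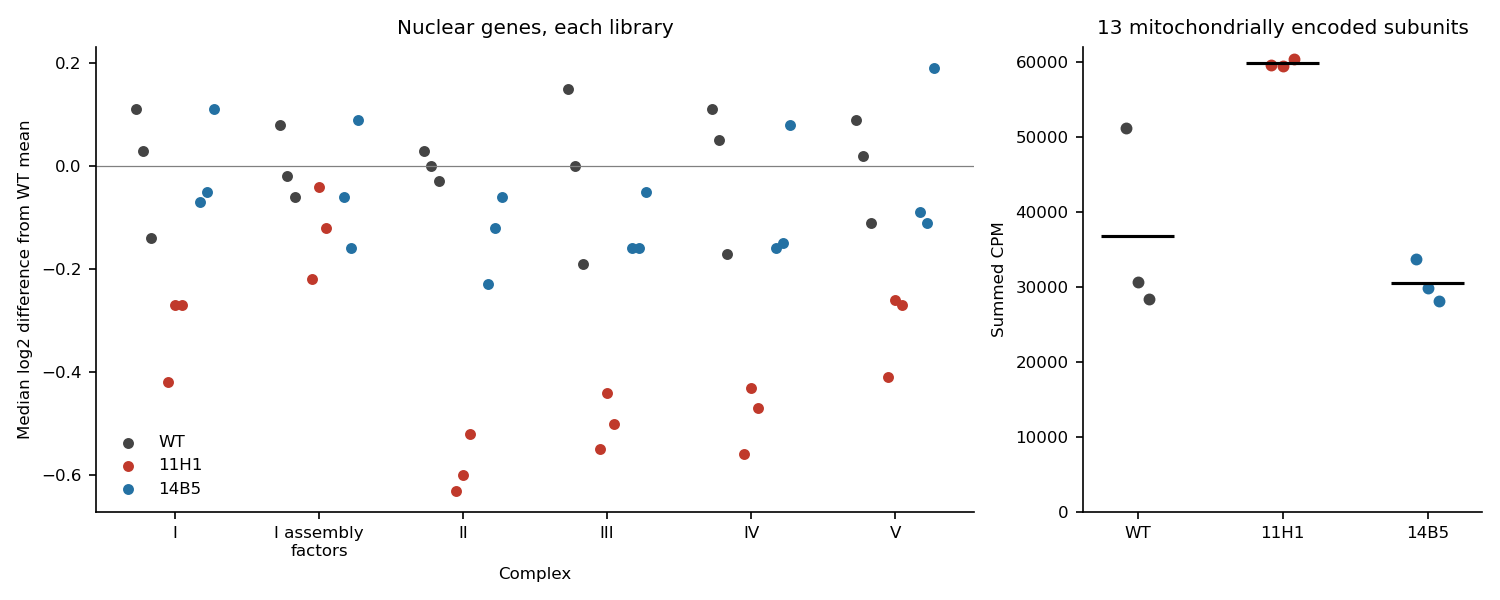
Left, the median over the tested genes of each complex of the log2 difference from the WT mean, 1 point per library. Right, summed CPM of the 13 mitochondrially encoded subunits per library, with bars at the means. The 11H1 libraries are below the other groups on the left for complexes I to V and above them on the right, at 59425 to 60351 CPM.

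The shortest transcripts had a lower median in 11H1, and 42 of the 92 tested members were in that class. Lengths are those of the longest principal transcript in GENCODE v29. Among all genes tested with a length under 1 kb the median log2FC in 11H1 versus WT was −0.24, and the members in that class had −0.42. In the class of 4 kb and over the medians were 0.05 for all genes and −0.18 for 9 members. In 11H1 versus 14B5 the medians under 1 kb were −0.28 for all genes and −0.34 for the members, and in the longer classes they were −0.19 and −0.30 at 1 to 2 kb, −0.05 and −0.29 at 2 to 4 kb and 0.07 and −0.24 at 4 kb and over. With the trend on length removed, a setting chosen after seeing the data, the median of all members was −0.18 in 11H1 versus WT and −0.11 in 11H1 versus 14B5. Complex II kept the lowest or joint lowest median after that step, at −0.41 and −0.34, and complex III was at −0.41 and −0.08. The part of transcript length in the calls of single genes was not tested.

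**Figure D3:**
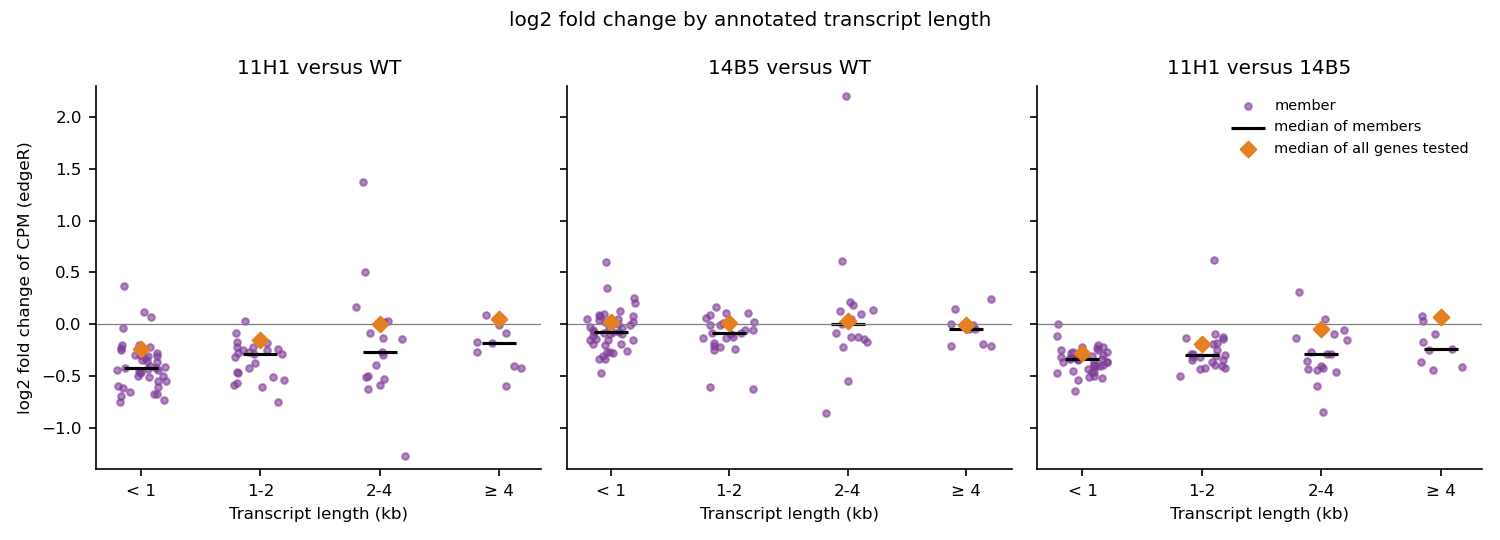
Members by length class of their annotated transcript (x axis, kb) with their log2FC in edgeR (y axis). Black bars are medians of the members, and orange diamonds are medians of all genes tested in the class, which rise from −0.24 under 1 kb to 0.05 at 4 kb and over in 11H1 versus WT and stay between −0.01 and 0.03 in 14B5 versus WT.

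Complex II showed the largest single fall among the members. *SDHA* (ENSG00000073578.17, chr5:218241-256700), the flavoprotein that oxidizes succinate, was at 317, 301 and 306 CPM in WT, 124, 132 and 126 CPM in 11H1 and 170, 172 and 174 CPM in 14B5. All libraries of both clones were far below WT, and those of 11H1 were below those of 14B5. The log2FC was −1.27 in 11H1 versus WT (standard error 0.0463, adjusted p = 1.04e-09) and −0.86 in 14B5 versus WT (standard error 0.0441, adjusted p = 1.62e-07), with a difference between clones of −0.43 (adjusted p = 3.70e-06). *SDHB*, the iron-sulfur subunit, was at 101, 102 and 96 CPM in WT, 63.9, 65.2 and 69 CPM in 11H1 and 74.5, 90.3 and 96 CPM in 14B5. Its groups did not overlap between 11H1 and WT, and 14B5 was spread from near 11H1 to the lowest WT library. The log2FC of *SDHB* was −0.59 in 11H1 (adjusted p = 7.39e-07) and −0.21 in 14B5 (adjusted p = 0.0515, and from 0.0139 without 14B5 library 3 to 0.0489 in the 7 alternatives where it passed the threshold). *SDHD*, which anchors the enzyme in the membrane, was at 225, 217 and 212 CPM in WT, 142, 144 and 152 CPM in 11H1 and 213, 203 and 207 CPM in 14B5. It was lower in 11H1 by −0.57 (adjusted p = 7.58e-07), and the value in 14B5 was −0.09 (adjusted p = 0.138). Expected counts of *SDHA*, *SDHC* and *SDHD* were not all whole, so some of their reads were split with other genes. Those of *SDHB* were whole. The part of this splitting in the complex II values was not tested.

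*SDHC*, the other membrane anchor, was called in opposite directions in the clones. It was at 125, 125 and 122 CPM in WT, 103, 110 and 113 CPM in 11H1 and 144, 148 and 152 CPM in 14B5, so that none of the groups overlapped. The log2FC was −0.18 in 11H1 (adjusted p = 0.00392) and 0.24 in 14B5 (adjusted p = 0.0011), and the direct difference between the clones was −0.44 (standard error 0.0462, adjusted p = 6.09e-06). Summed over its 4 genes, complex II RNA was 750 ± 16.5 CPM in WT, 448 ± 13.7 CPM in 11H1 and 615 ± 14.5 CPM in 14B5 (SD, n = 3 each). The assembly factors of complex II followed different courses. *SDHAF4*, a chaperone of SDHA, was at 5.76, 6.79 and 5.62 CPM in WT, 1.94, 2.31 and 2.56 CPM in 11H1 and 3.82, 3.93 and 4.3 CPM in 14B5, lower by −1.43 in 11H1 (adjusted p = 1.89e-06) and −0.61 in 14B5 (adjusted p = 9.94e-04). *SDHAF3*, which helps insert iron-sulfur clusters into SDHB, had log2FC values of −0.58 in 11H1 (adjusted p = 0.00172) and 0.59 in 14B5 (adjusted p = 5.44e-04).

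**Figure D4:**
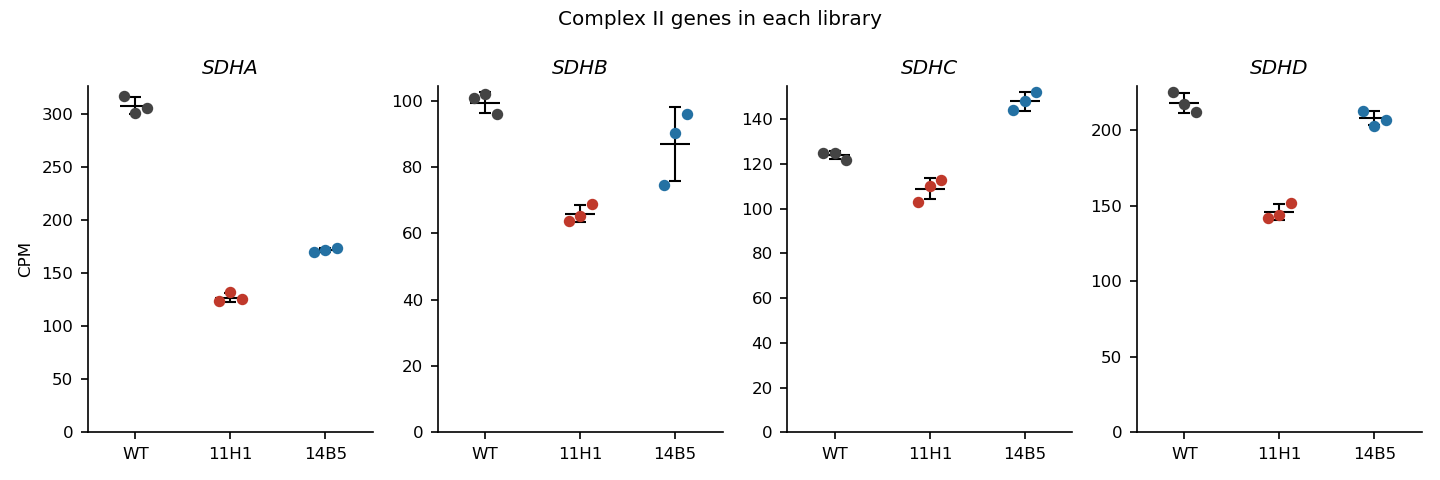
CPM (y axis, from 0) of the 4 complex II genes in each library, grouped by WT and clone. Points are libraries, and bars are the mean and SD of 3. *SDHA* is lower in both clones, and *SDHC* is lower in 11H1 and higher in 14B5.

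For some members on chromosome 5 the neighbouring genes had low medians too. In the window of *SDHA* of 10000000 bases, 35 genes were tested, with a median log2FC of −0.35 in 11H1 and −0.72 in 14B5 versus WT, so that *SDHA* was −0.92 and −0.13 relative to its window. *NDUFS6* (chr5:1801400-1816605), an accessory subunit of complex I in the same window, was at 75.1, 74.4 and 68.7 CPM in WT, 39.7, 47.1 and 43.2 CPM in 11H1 and 46.3, 47.5 and 48.4 CPM in 14B5. It was lower by −0.75 in 11H1 (adjusted p = 9.46e-07) and −0.63 in 14B5 (adjusted p = 4.35e-06), and relative to the window it was −0.40 and 0.09. *UQCRQ* and *NDUFA2*, farther along the chromosome, lay in windows with medians of −0.45 and −0.29 in 11H1 and −0.40 and −0.42 in 14B5. Thus the 14B5 values of *SDHA*, *NDUFS6*, *UQCRQ* (−0.34) and *NDUFA2* (−0.31) were within 0.13 of the medians of their own windows. Other members on the chromosome lay apart from their windows. *NDUFAF2* had −0.73 in 11H1 and −0.28 in 14B5 where its window had −0.05 and 0.17, and *COX7C*, a small complex IV subunit, had −0.61 and −0.25 where its window had −0.15 and −0.07. *NDUFS4* had −0.55 and 0.09 where its window had −0.36 and −0.17. The copy number of these segments was not measured, and its part in the result was not tested. With each gene set relative to its window, the median of all members was −0.31 in 11H1 and −0.05 in 14B5 versus WT.

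In complex I, core subunits, accessory subunits and membrane arm subunits were lower in 11H1 in 5 of 7, 16 of 20 and 9 of 11 genes. The share of all genes tested that was lower in 11H1 versus WT was 32.8%. *NDUFA2* was at 38.8, 34.7 and 30.7 CPM in WT, 18.9, 21.3 and 21.9 CPM in 11H1 and 27, 26.1 and 32 CPM in 14B5. All 11H1 libraries were below the other groups, and the log2FC against WT was −0.75 (adjusted p = 1.14e-05). In 14B5 it was −0.31 (adjusted p = 0.0213), a call lost without WT library 1 or 2 or 14B5 library 1 or 2 (adjusted p up to 0.0969). *NDUFB7*, a small subunit of the membrane arm, was at 80.7, 87.8 and 59.3 CPM in WT, 46.2, 49 and 47.7 CPM in 11H1 and 62.9, 71.3 and 74 CPM in 14B5. The WT libraries were spread widely, and 11H1 was below all of them (log2FC −0.67, adjusted p = 2.22e-04) and below 14B5 (−0.54, adjusted p = 1.01e-05). *NDUFS4*, an accessory subunit of the matrix arm, was at 14.6, 12 and 12.1 CPM in WT, 7.98, 9.02 and 9.61 CPM in 11H1 and 13.6, 13.8 and 14.3 CPM in 14B5. It had the largest fall of complex I between the clones, −0.65 (adjusted p = 1.43e-05).

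Of the 7 core subunits, 2 did not pass the threshold in 11H1. *NDUFS1*, the largest core subunit, which carries iron-sulfur clusters, was at 152, 147 and 159 CPM in WT, 149, 148 and 157 CPM in 11H1 and 172, 171 and 168 CPM in 14B5. The 11H1 libraries lay within the range of WT (log2FC −0.01, standard error 0.0475, adjusted p = 0.918), and 14B5 was higher by 0.15 (adjusted p = 0.0208), a call lost without WT library 1 or 2 or 14B5 library 2 (adjusted p up to 0.0947). That call was also lost with the replicate number as a block. *NDUFV1*, which binds NADH, was at 175, 173 and 158 CPM in WT, 152, 160 and 150 CPM in 11H1 and 157, 157 and 168 CPM in 14B5. Its log2FC in 11H1 was −0.13 with an adjusted p of 0.0512, and it passed the threshold in 9 of the alternatives, with adjusted p values from 0.00264 (without WT library 3) to 0.0478. *NDUFB5* was lower in both clones, by −0.54 in 11H1 (adjusted p = 5.46e-05) and −0.24 in 14B5 (adjusted p = 0.00747). The other complex I genes not past the threshold in 11H1 were *NDUFA10*, *NDUFA6*, *NDUFB1*, *NDUFB9*, *NDUFV3* and the read-through gene *NDUFC2-KCTD14*, with log2FC values from −0.09 to 0.12.

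The NDUFAF assembly factors, which join the subunits of complex I but do not stay in it, went different ways. *NDUFAF7* (chr2:37231631-37253403), a methyltransferase of complex I assembly, was at 25, 23.7 and 25.1 CPM in WT, 34.7, 35.6 and 33.7 CPM in 11H1 and 30.6, 26.1 and 28 CPM in 14B5. It was highest in 11H1, 0.50 above WT (adjusted p = 5.43e-06) and 0.31 above 14B5 (adjusted p = 8.59e-04). In 14B5 it was 0.18 above WT (adjusted p = 0.0408), a call lost without WT library 1 or 2 or 14B5 library 1 or 3 (adjusted p up to 0.133). That call was also lost in limma voom, with a mean of at least 1 CPM, with protein-coding genes only and with the replicate number as a block. *NDUFAF3*, an early assembly factor, was at 28.8, 29.7 and 28.3 CPM in WT, 28, 31.8 and 28.4 CPM in 11H1 and 50.4, 42.1 and 41.9 CPM in 14B5. Only the 14B5 libraries stood above the rest, by 0.61 against WT (adjusted p = 7.71e-05), and 11H1 was below 14B5 by −0.60 (adjusted p = 2.75e-05). *NDUFAF2*, a late assembly factor on chromosome 5, was at 9.85, 9.3 and 7.6 CPM in WT, 5.09, 5.36 and 5.73 CPM in 11H1 and 7.13, 6.28 and 8.89 CPM in 14B5, lower in 11H1 by −0.73 (adjusted p = 1.05e-04). *NDUFAF1* was lower in both clones, by −0.38 in 11H1 (adjusted p = 5.52e-05) and −0.22 in 14B5 (adjusted p = 0.00627).

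All 9 members of complex III were lower in 11H1 versus WT, where 32.8% of all genes tested were lower. The core subunit *UQCRC2* was at 247, 230 and 239 CPM in WT, 163, 173 and 168 CPM in 11H1 and 205, 203 and 211 CPM in 14B5. No groups overlapped, with 11H1 lowest (log2FC −0.50, adjusted p = 2.03e-06) and 14B5 in between (−0.22, adjusted p = 0.0024). The other core subunit, *UQCRC1*, was at 220, 221 and 206 CPM in WT, 153, 162 and 152 CPM in 11H1 and 193, 197 and 208 CPM in 14B5. It was lower in 11H1 by −0.47 (adjusted p = 5.52e-06), and its 14B5 value was −0.13 (adjusted p = 0.0552, or 0.0265 without WT library 3 and 0.0449 without 14B5 library 3). The Rieske iron-sulfur protein *UQCRFS1* was at 230, 223 and 216 CPM in WT, 150, 164 and 148 CPM in 11H1 and 207, 199 and 216 CPM in 14B5. It was lower in 11H1 by −0.53 (adjusted p = 3.10e-06) and differed between the clones by −0.42 (adjusted p = 2.06e-05).

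The hinge protein *UQCRH* went from 228, 196 and 167 CPM in WT to 112, 127 and 131 CPM in 11H1 and 130, 136 and 166 CPM in 14B5. Both clones were below every WT library, by −0.67 in 11H1 (adjusted p = 6.66e-05) and −0.47 in 14B5 (adjusted p = 0.00645). The near-identical copy *UQCRHL* had −0.63 in 11H1 (adjusted p = 0.00109) and −0.55 in 14B5 (adjusted p = 0.0135), and counting divides reads that match both, so their values are uncertain as separate genes. *UQCRQ* was at 67, 63.6 and 51.5 CPM in WT, 33, 40.5 and 42.2 CPM in 11H1 and 42.4, 47.1 and 56.3 CPM in 14B5. The fall was −0.66 in 11H1 (adjusted p = 1.40e-04) and −0.34 in 14B5 (adjusted p = 0.0304), the latter lost without WT library 1 or 2 or 14B5 library 1 or 2 (adjusted p up to 0.136). The 14B5 call was also lost with the replicate number as a block. *CYC1*, the cytochrome c1 of this complex that the symbol rule leaves out, was lower by −0.68 in 11H1 (adjusted p = 7.48e-06) and −0.25 in 14B5 (adjusted p = 0.0131), and cytochrome c itself, *CYCS*, by −0.22 in 11H1 (adjusted p = 0.0017).

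In complex IV, 10 of the 11 ubiquitous subunits were lower in 11H1 versus WT, against 32.8% of all genes tested. The other, *COX6C*, was at −0.25 (adjusted p = 0.0531). *COX5B* was at 69.4, 70.5 and 55.8 CPM in WT, 37.8, 43 and 40 CPM in 11H1 and 51.5, 53.2 and 68.9 CPM in 14B5. Its 11H1 libraries were below both other groups, with −0.69 against WT (adjusted p = 1.79e-05) and −0.52 against 14B5 (adjusted p = 5.03e-04). *COX4I1*, which takes part in the assembly and control of the enzyme, was at 152, 147 and 127 CPM in WT, 93.7, 101 and 95.3 CPM in 11H1 and 106, 111 and 123 CPM in 14B5. Both clones were below WT, by −0.55 (adjusted p = 1.80e-05) and −0.34 (adjusted p = 0.00386). *COX5A* was at 111, 109 and 98.8 CPM in WT, 71.9, 75.8 and 74.7 CPM in 11H1 and 97.5, 92.3 and 112 CPM in 14B5, lower in 11H1 by −0.51 (adjusted p = 5.06e-06). *COX7A2L*, a factor of respiratory supercomplexes, was lower by −0.51 in 11H1 (adjusted p = 2.46e-05).

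Of the 7 tissue isoforms of complex IV, 2 were tested and 1 passed the threshold against WT, in the opposite direction to the ubiquitous subunits. *COX6B2* (ENSG00000160471.13, chr19:55349306-55354814), known as the testis isoform, was at 4.95, 4.64 and 4.35 CPM in WT, 11.3, 13.4 and 11.4 CPM in 11H1 and 21, 21.6 and 22.4 CPM in 14B5. Expected counts of *COX6B2* were not all whole, so some of its reads were split with other genes, and the part of this was not tested. Its 3 groups were far apart, with 14B5 highest. The log2FC was 1.37 in 11H1 (standard error 0.0962, adjusted p = 1.89e-07) and 2.20 in 14B5 (standard error 0.0747, adjusted p = 1.05e-08), and 11H1 was below 14B5 by −0.85 (adjusted p = 9.61e-07). Its ubiquitous counterpart *COX6B1* was at 325, 310 and 263 CPM in WT, 178, 200 and 209 CPM in 11H1 and 232, 245 and 274 CPM in 14B5. That gene went the other way, by −0.61 in 11H1 (adjusted p = 3.25e-05) and −0.27 in 14B5 (adjusted p = 0.0207), and the 14B5 call was lost without WT library 1 or 2 or 14B5 library 1 or 2 (adjusted p up to 0.102). With the replicate number as a block the 14B5 call was lost too. Per transcript length, *COX6B2* made up 0.497% ± 0.0273 of the RNA of both genes in WT, 1.94% ± 0.2 in 11H1 and 2.71% ± 0.138 in 14B5 (SD, n = 3 each), so *COX6B1* remained the main isoform.

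*COX4I2*, *COX6A2*, *COX7A1* and *COX7B2*, the isoforms of lung, muscle, heart and testis, had no counts in any library, and *COX8C* had 1 count in a single WT library. A count of 0 allows up to 3 counts, which is 0.0502 to 0.0914 CPM by library and covers counting error only. *NDUFA4L2*, known for its induction in low oxygen, was at 0.0903 to 0.487 CPM and was not past the threshold in any comparison. Of the ubiquitous counterparts, *COX6A1* was lower in 11H1 by −0.31 (adjusted p = 0.0046), *COX7A2* by −0.42 (adjusted p = 0.00131), *COX7B* by −0.59 (adjusted p = 4.69e-04), *COX8A* by −0.47 (adjusted p = 2.08e-04) and *NDUFA4* by −0.27 (adjusted p = 0.00821, or 0.0514 without 11H1 library 1).

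**Figure D5:**
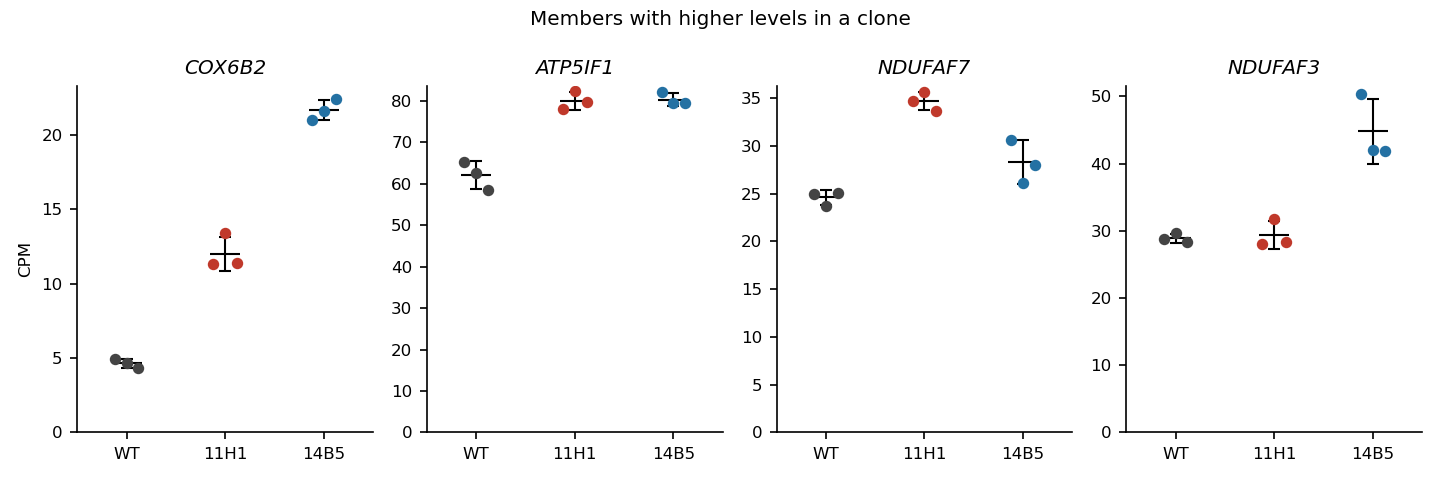
CPM (y axis, from 0) in each library of 4 members that were higher than WT in at least 1 clone. Points are libraries, and bars are the mean and SD of 3. *COX6B2* is highest in 14B5, *ATP5IF1* is alike in both clones, *NDUFAF7* is highest in 11H1 and *NDUFAF3* is higher in 14B5.

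Complex V held the most abundant member. *ATP5F1B*, the catalytic beta subunit, was at 1362, 1400 and 1393 CPM in WT, 1015, 1045 and 1034 CPM in 11H1 and 1311, 1276 and 1282 CPM in 14B5. The groups did not overlap, and the fall was −0.42 in 11H1 (adjusted p = 4.69e-06) and −0.12 in 14B5 (adjusted p = 0.0428), the latter lost on leaving out any 1 of the 6 libraries (adjusted p from 0.0647 to 0.202). The 14B5 call was also lost with DESeq2 size factors, library totals, no filter on low counts and the replicate number as a block. *ATP5F1A*, the alpha subunit, was at 529, 522 and 541 CPM in WT, 389, 404 and 405 CPM in 11H1 and 528, 516 and 515 CPM in 14B5. It was lower in 11H1 by −0.40 (adjusted p = 6.38e-06) and was at −0.05 in 14B5 (adjusted p = 0.408). *ATP5PO*, which joins the catalytic head to the peripheral stalk, was at 265, 256 and 239 CPM in WT, 164, 186 and 186 CPM in 11H1 and 234, 229 and 247 CPM in 14B5, with −0.50 in 11H1 (adjusted p = 1.43e-05).

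The genes *ATP5MC1*, *ATP5MC2* and *ATP5MC3* encode the same mature c subunit of the rotor ring behind different import signals. *ATP5MC3* was at 265, 245 and 213 CPM in WT, 149, 166 and 160 CPM in 11H1 and 197, 204 and 231 CPM in 14B5. *ATP5MC2* was at 311, 293 and 274 CPM in WT, 225, 246 and 243 CPM in 11H1 and 312, 320 and 327 CPM in 14B5. The log2FC in 11H1 was −0.60 for *ATP5MC3* (adjusted p = 1.95e-05), −0.29 for *ATP5MC2* (adjusted p = 7.01e-04) and −0.30 for *ATP5MC1* (adjusted p = 0.00203). Against 14B5 the 3 genes were lower in 11H1 by −0.41, −0.42 and −0.40.

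*ATP5IF1* (chr1:28236109-28246906) encodes the inhibitor that stops ATP synthase from running backwards. It was at 65.3, 62.7 and 58.6 CPM in WT, 78, 82.4 and 79.7 CPM in 11H1 and 82.1, 79.4 and 79.4 CPM in 14B5. Both clones were above every WT library, by 0.37 in 11H1 (standard error 0.0517, adjusted p = 5.80e-05) and 0.35 in 14B5 (standard error 0.0527, adjusted p = 3.08e-04). The difference between the clones was 0.00 with a standard error of 0.0427 (adjusted p = 0.988). *ATP5PB*, a peripheral stalk subunit, was at 466, 431 and 415 CPM in WT, 372, 405 and 407 CPM in 11H1 and 495, 493 and 543 CPM in 14B5. It was called in opposite directions, −0.14 in 11H1 (adjusted p = 0.0402) and 0.21 in 14B5 (adjusted p = 0.0158), with a direct difference of −0.36 (adjusted p = 6.75e-05). The 11H1 call was lost on leaving out any library except WT library 3 (adjusted p from 0.0563 to 0.172), and the 14B5 call without WT library 2 (adjusted p = 0.058) or 14B5 library 3 (adjusted p = 0.0553). With the replicate number as a block both calls were lost, and the 11H1 call also with library totals or protein-coding genes only.

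Levels of different genes were compared per kb of transcript. In WT *ATP5F1B* was highest, at 753 ± 11.1 CPM per kb (SD, n = 3), followed by *COX6B1* at 449 ± 49.1, *ATP5MF* at 374 ± 73.9, *UQCRH* at 327 ± 50.8 and *NDUFS5* at 318 ± 34 CPM per kb. Neighbours in this order after *ATP5F1B* did not differ beyond their spread. In 11H1 *ATP5F1B* was at 561 ± 8.34 and *COX6B1* at 293 ± 24.1 CPM per kb, and in 14B5 they were at 701 ± 10.1 and 375 ± 31.8 CPM per kb. These levels depend on the transcript taken for each gene, and *SDHC* was at only 9.13 CPM per kb in WT with an annotated transcript of 13566 bases.

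The 13 mitochondrially encoded subunits went the other way in 11H1. Their sum was 36707 ± 12575 CPM in WT, 59783 ± 498 CPM in 11H1 and 30548 ± 2891 CPM in 14B5 (SD, n = 3 each). WT library 1 stood apart at 51172 CPM, and the sums of all 11H1 libraries were above it. Taken singly, 6 of the 13 genes had all 11H1 libraries above all WT libraries, against 33.4% of all genes tested. The complex V genes among them summed to 4261 CPM in WT library 1 and 4002 to 4068 CPM in 11H1. Of the 13, 10 were higher in 11H1 than in WT and 13 were higher in 11H1 than in 14B5, against 31.8% and 31.6% of all genes tested, with median log2FC values of 0.55 and 1.02, while in 14B5 versus WT 1 was lower. The median against WT was 1.02 without WT library 1 and 0.36 without WT library 3. Against WT, the number higher in 11H1 was 13 without WT library 1, 6 without WT library 2 or 11H1 library 1 and 7 without WT library 3 or 11H1 library 3, and against 14B5 it was 13 whichever library was left out. In 14B5 versus WT, 7 were lower without WT library 3, and the single call was lost without WT library 1, 14B5 library 1 or 14B5 library 2. *MT-ND6*, the complex I subunit encoded on the light strand, had the largest rise in 11H1, 1.74 against WT (adjusted p = 5.21e-04) and 2.18 against 14B5 (adjusted p = 4.86e-08). Whether counting used strand is not given in the sources used here, so reads of *MT-ND6* and of RNA from the opposite strand cannot be told apart. *MT-CYB*, the cytochrome b of complex III, was at 2605, 1552 and 1457 CPM in WT, 3924, 3852 and 3856 CPM in 11H1 and 1951, 1710 and 1580 CPM in 14B5 (log2FC 1.06 in 11H1 versus WT, adjusted p = 1.58e-04), where the 9 nuclear members of that complex were lower in 11H1. The share of counts from mitochondrially encoded genes was 3.54% to 6.03% in WT, where 6.03% was library 1, and 7.23% to 7.39% in 11H1. In 14B5 that share was 3.30% to 3.92%. The nuclear members took 1.04% to 1.15% of counts in WT, 0.815% to 0.894% in 11H1 and 1.02% to 1.12% in 14B5. With the mitochondrially encoded genes taken out of the libraries, 73 members were lower in 11H1 than in WT and 70 lower than in 14B5.

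Related gene lists were counted in the same fits. Of all genes tested, 32.8% were lower and 31.8% higher in 11H1 versus WT, 28.7% and 24.9% in 14B5 versus WT, and 32.1% and 31.6% in 11H1 versus 14B5. Of 50 other assembly factors, 29 were lower and 6 higher in 11H1 versus WT, 7 lower and 17 higher in 14B5 versus WT, and 35 lower and 4 higher in 11H1 versus 14B5. *COX18*, which inserts a complex IV subunit into the membrane, was lower in 11H1 by −0.72 (adjusted p = 6.76e-06). Largest among the rises were *COX19* in 11H1 (0.74, adjusted p = 5.00e-07) and *ATPAF1*, which assembles the catalytic head of ATP synthase, in 14B5 (0.65, adjusted p = 1.26e-06). In 11H1 *ATPAF1* was lower by −0.18 (adjusted p = 0.00638). Of 17 genes of the citric acid cycle and pyruvate dehydrogenase, 12 were lower in 11H1 versus WT, against 32.8% of all genes tested, led by *MDH2* (−0.47, adjusted p = 4.71e-06) and *FH* (−0.46, adjusted p = 5.74e-06), where *FH* encodes the enzyme that follows succinate dehydrogenase. In 14B5 versus WT 2 were lower and 4 higher, the latter near the 24.9% of all genes tested. *SUCLG2*, a subunit of succinyl-CoA ligase, was higher in 14B5 by 0.35 (adjusted p = 2.26e-04) and lower in 11H1 by −0.33 (adjusted p = 1.39e-04). Between the clones *SUCLG2* differed by −0.70 (adjusted p = 1.80e-07). *SUCLA2* was also called in opposite directions, at −0.17 in 11H1 and 0.23 in 14B5. *CS*, citrate synthase, was at −0.02 in 11H1 (adjusted p = 0.756) and 0.09 in 14B5 (adjusted p = 0.188).

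Among 18 tested regulators of mitochondrial genes, 5 were higher and 2 lower in 11H1, where 31.8% of all genes tested were higher and 32.8% lower, so the number higher was near the share of all genes. In 14B5, 9 were higher and 2 lower, against 24.9% and 28.7% of all genes tested. *PPRC1*, a coactivator of the PGC-1 family, was at 120, 121 and 128 CPM in WT, 211, 205 and 195 CPM in 11H1 and 141, 147 and 149 CPM in 14B5. Both clones were above WT, by 0.73 in 11H1 (adjusted p = 1.30e-07) and 0.23 in 14B5 (adjusted p = 0.00221). *PPARGC1B* of the same family was lower in 14B5 by −0.92 (adjusted p = 1.28e-06), and *PPARGC1A* had no counts. *NRF1* was higher in both, by 0.25 (adjusted p = 0.00745) and 0.36 (adjusted p = 9.13e-04). Of the GABP subunits, *GABPA*, which binds DNA, was lower in 11H1 by −0.30 (adjusted p = 0.00162), with 64.8, 68.9 and 79 CPM in WT, 58, 55.9 and 57.9 CPM in 11H1 and 82.6, 82.3 and 72.7 CPM in 14B5. *TFAM*, which packages mitochondrial DNA and takes part in starting its transcription, was at 0.07 in 11H1 (adjusted p = 0.262) and was higher in 14B5 by 0.28 (adjusted p = 0.00235). *GABPB2*, at a mean of 2.7 CPM in WT, was higher by 1.09 in 11H1 (adjusted p = 2.74e-06) and 0.62 in 14B5 (adjusted p = 7.50e-04). The more abundant *GABPB1*, at a mean of 70.3 CPM in WT, was lower in 11H1 by −0.12 (adjusted p = 0.0374). In 14B5 *GABPB1* was higher by 0.21 (adjusted p = 0.00606).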

How the data were processed

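RNA from 9 SET2 libraries was sequenced (3 per group). The submitters' processing notes name STAR 2.7.9a, Picard, RSEM and GRCh38, and the RSEM version and annotation release are not given in the sources used here. Library kits differ between the sources, a stranded mRNA kit in the study's methods and a SMARTER kit in the labels. The deposited values are expected counts that RSEM estimates for each gene, not normalized, and a read that fits more than 1 gene is split between them. Values were not whole for 31 of the 98 members. The 92 spike-in entries were at 0 in every library and left out. Groups followed the labels. All 6 KO libraries were used, which is more than the study's text counts.

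Expected counts were rounded and tested with edgeR 4.0.16 in R 4.3.3 (filterByExpr, TMM, quasi-likelihood F test, only the 2 groups compared, Benjamini-Hochberg adjustment over all genes tested, threshold 0.05). All log2FC and adjusted p values come from these fits. Genes were placed by GENCODE v29. The steps were tested on simulated counts. Within a group, libraries were no copies of each other. Members, lists and the rule for named genes were chosen with earlier results of these data known. The rule took, in each comparison, the 2 largest rises and falls per complex among called members whose libraries did not overlap and averaged 1 CPM or more (complex II whole, 1 each way for NDUFAF genes), fixed core subunits and isoform groups, *ATP5IF1*, members called in opposite directions, and the largest changes of each list. Names outside it, such as those not past the threshold, were chosen after their values were seen. Alternatives were DESeq2 1.42.0 size factors and its Wald test, library totals, limma 3.58.1 voom on unrounded values, other filters, a 3-group fit, the replicate number as a block, windows of 10000000 bases, the trend on transcript length and each library left out.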

Additional observations from a re-analysis of the deposited data

Results flagged for a closer look

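The effects of the clones against WT differed in direction for *SDHC*, where the direct difference of 11H1 from 14B5 was a log2FC of −0.44 (adjusted p = 6.09e-06 in edgeR), with all 3 libraries of 11H1 below and all 3 of 14B5 above WT. The same held for *ATP5PB*, with a direct difference of −0.36 (adjusted p = 6.75e-05 in edgeR), although its call against WT was lost in 8 alternatives for 11H1 and in 3 for 14B5.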

How the results depend on the processing

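With the trend on transcript length removed, a setting chosen after seeing the data, median log2FC values in 11H1 versus WT were −0.18 over all members, −0.16 in complex I, −0.02 in its assembly factors, −0.41 in complex II, −0.27 in complex IV and −0.14 in complex V. In 11H1 versus 14B5 they were −0.11, −0.09, −0.01, −0.34, −0.19 and −0.12 in the same order, and −0.08 in complex III. Relative to windows of 10000000 bases, the assembly factors were at −0.02 and complex II at −0.67 in 11H1 versus WT. In 14B5 versus WT, 14 members were higher with no filter on low counts. In 11H1 versus 14B5, 2 members were higher with a mean of at least 1 CPM and with protein-coding genes only. The replicate number, entered as a block, left 10 members lower in 14B5 versus WT. Correlations of same-numbered libraries ran from −0.136 to 0.0491, so no clear shared deviation was seen. Such correlations cannot show whether same-numbered libraries were grown or prepared together.

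With each library left out, 8 to 29 members were lower and 4 to 10 higher in 14B5 versus WT, 53 to 78 were lower in 11H1 versus WT and 59 to 75 in 11H1 versus 14B5, where the complex III median ran from −0.36 to −0.23. Some small medians in 14B5 versus WT changed sign when a library was left out. They ran from −0.08 to 0.02 in complex I, −0.14 to 0.08 in its assembly factors and −0.11 to 0.06 in complex V. The median of the mitochondrially encoded subunits in 14B5 versus WT was −0.35, and 0.06 without WT library 1. With a library left out, no median of the nuclear sets reversed with both values beyond the SD of its library medians. Over single genes, 1783 of the values kept their direction and side of the threshold, 58 lost a call, 41 gained one and 35 values with no call changed sign. The cause was not tested. Members with few counts, such as *NDUFA4L2*, were limited by depth.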
